A study of Mus musculus with 4 samples.

Results

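The Hox genes of the mouse were examined in cultured pancreatic fibroblasts, 38 genes of the Hoxa, Hoxb, Hoxc and Hoxd clusters taken by name, with no measured value in the rule. Of these, 37 had a row among the 38921 gene rows of each deposited table, and 25 had enough reads to be tested between genotypes. The remaining 12 rows were too low, with at most 68 reads in any library. Hoxd4 had no row. GENCODE M21 places it at chr2:74711929-74729160, and all of it lies inside the Hoxd3 row, where its reads would be counted.

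Fibroblasts from the pancreas of wild type mice gave 2 libraries and those of KPC mice gave 2, all of mixed strain and grown in DMEM with fetal bovine serum after separation by gravity. The name KPC usually refers to a mouse pancreatic cancer model whose engineered alleles, including mutant Trp53, are activated by a Cre under the Pdx1 promoter, so in the pancreatic epithelial lineage and not in fibroblasts. The labels give the genotype name alone, with no alleles, age or tumour stage, and call the libraries biological replicates without saying how many animals they came from. The p-values below therefore measure the spread between these 4 libraries. The comparison asks how the fibroblasts of the KPC pancreas differ from those of the wild type pancreas.

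Hox genes encode homeodomain transcription factors that give cells an address along the body axis. Within a cluster the genes lie in the order in which they are used: low paralog numbers at the 3′ end act in anterior tissue and early, high numbers at the 5′ end act in posterior tissue and late. Fibroblasts taken from different body sites keep a site-specific set of active Hox genes in culture. In the pancreas Hox expression belongs mainly to the mesenchyme around the endoderm, where Hoxb6 has been described. Polycomb proteins keep unused parts of a cluster silent, Trithorax proteins keep used parts active, retinoic acid induces the 3′ genes, and the TALE proteins Pbx, Meis and Prep bind DNA beside Hox proteins.

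The clusters also hold microRNA genes, shown here because their loci lie beside members whose levels are described below. The mature strands fall into 2 families by the seed, bases 2 to 8, set in capitals (RefSeq, GRCm38.p6):
mmu-miR-10a-5p: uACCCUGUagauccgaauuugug
mmu-miR-10b-5p: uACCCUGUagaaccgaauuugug
mmu-miR-196a-5p: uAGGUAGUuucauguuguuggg
mmu-miR-196b-5p: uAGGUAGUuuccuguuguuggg
Mir10a lies inside the Hoxb4 row and Mir10b inside the Hoxd3 row. Mir196a-1 lies 5′ of Hoxb9, Mir196a-2 inside the Hoxc5 row and Mir196b inside the Hoxa9 row. Among the GENCODE M21 transcripts of all 38 genes, the closest complement of miR-196a-5p was in Hoxb8, a long known target, with 21 of 22 bases in Watson-Crick pairs. The next best, in Hoxa4 and Hoxd8, had 15 of 22. In the Hoxb8 site capitals mark bases in Watson-Crick pairs and the lower case letter the base outside them:
Hoxb8 site: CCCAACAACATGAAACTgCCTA

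The promoters of 3 Hoxd genes that were highest together in 1 library, and of Hoxc4, which was higher in both KPC libraries, are shown as 300 bases, 250 before and 50 from the RefSeq start, GRCm38.p6, plus strand. The table held a promoter for 22 of the 38 genes. Both strands were searched for the TATA box (TATAAA), the CCAAT box (CCAAT), the GC box (GGGCGG) and a joint motif of Pbx and Hox proteins (TGATTNAT). No matches overlapped in these windows, and capitals mark a match, written as its reverse complement where it lies on the minus strand:
Hoxd3 chr2:74711743-74712042: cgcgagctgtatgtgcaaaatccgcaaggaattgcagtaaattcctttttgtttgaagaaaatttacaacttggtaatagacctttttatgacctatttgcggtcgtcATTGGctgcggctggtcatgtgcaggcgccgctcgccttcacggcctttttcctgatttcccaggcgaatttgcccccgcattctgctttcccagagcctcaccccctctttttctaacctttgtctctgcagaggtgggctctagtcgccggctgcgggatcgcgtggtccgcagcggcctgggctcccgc
Hoxd8 chr2:74704365-74704664: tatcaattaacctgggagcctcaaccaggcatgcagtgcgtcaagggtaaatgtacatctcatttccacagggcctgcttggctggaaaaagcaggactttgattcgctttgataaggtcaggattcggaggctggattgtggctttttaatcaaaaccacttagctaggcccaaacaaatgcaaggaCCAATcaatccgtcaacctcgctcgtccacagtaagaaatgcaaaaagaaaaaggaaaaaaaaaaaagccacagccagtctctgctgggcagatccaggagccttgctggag
Hoxd9 chr2:74697513-74697812: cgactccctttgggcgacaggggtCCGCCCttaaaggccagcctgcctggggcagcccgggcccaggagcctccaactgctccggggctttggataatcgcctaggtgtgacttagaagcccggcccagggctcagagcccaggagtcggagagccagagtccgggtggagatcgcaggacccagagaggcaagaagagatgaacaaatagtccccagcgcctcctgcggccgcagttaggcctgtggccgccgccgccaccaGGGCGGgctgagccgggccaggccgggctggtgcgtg
Hoxc4 chr15:103034145-103034444: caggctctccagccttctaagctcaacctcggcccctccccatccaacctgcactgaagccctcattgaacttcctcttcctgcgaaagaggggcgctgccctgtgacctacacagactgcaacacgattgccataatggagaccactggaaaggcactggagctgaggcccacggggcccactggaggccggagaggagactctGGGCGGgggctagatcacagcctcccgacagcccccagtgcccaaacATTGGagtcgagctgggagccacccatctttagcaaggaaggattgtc
Hoxd3 and Hoxd8 hold 1 CCAAT each, on opposite strands, Hoxd9 holds 2 GGGCGG, and Hoxc4 holds 1 of each. Of 32544 promoters of this length, 37.4% hold CCAAT, 35.9% GGGCGG, 13.6% TATAAA and 3.23% TGATTNAT. The CpG count was 20 in Hoxd3 and in Hoxd9, 6 in Hoxd8 and 9 in Hoxc4, against a median of 7. No motif match was shared by all 3 Hoxd promoters.

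The counts summed to between 22302141 (wild type 2) and 68312367 (KPC 2) per library, and the 37 Hox rows took between 5069 and 11020 of them. Levels are CPM, counts per 1000000 counts of the library after scaling by trimmed mean of M-values, on which 3 reads stand for 0.0442 to 0.134 CPM. Across all 23046 tested rows, edgeR's quasi-likelihood test with Benjamini-Hochberg adjustment called 0 rows at 0.05, with 0.211 the smallest adjusted p. Before adjustment 1090 rows were higher and 909 lower in KPC at p under 0.05, and DESeq2 called 333 higher and 294 lower after adjustment. All 10 fibroblast markers were detected in all 4 libraries, with a summed level between 10221 and 12053 CPM. Markers of other cells were present too and differed between libraries. Summed macrophage markers ran from 69.0 and 242 CPM in wild type to 933 and 1951 CPM in KPC. In bulk libraries fewer cells of a type and less RNA per cell cannot be told apart.

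**Figure D1:**
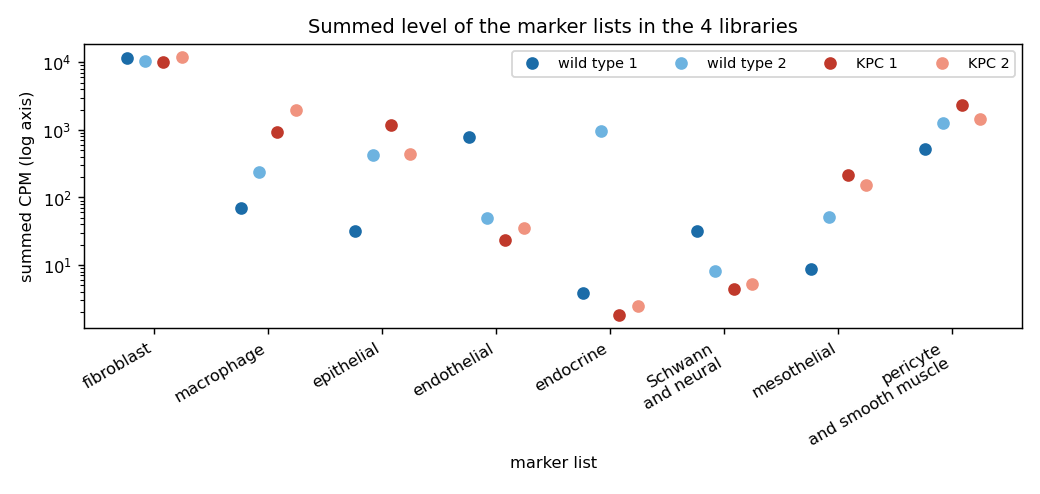
Summed CPM (log axis) of the marker lists in the 4 libraries, 1 point per library. Fibroblast markers lie within 10221 to 12053 CPM in all libraries, endothelial markers peak in wild type 1, endocrine markers in wild type 2 and epithelial and mesothelial markers in KPC 1.

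Reads were counted over whole gene intervals without regard to strand, and several Hox intervals overlap. Rows of 12 members overlap another member, and rows of 15 overlap a gene that is no member. The Hoxa3 row (chr6:52163359-52213339) contains all of Hoxa4, Hoxa5 and Hoxa6, whose rows hold 59.0% to 70.0% of its reads. The Hoxc5 row (chr15:102967443-103017429) contains Hoxc6, Hoxc8 and Hoxc9, which hold 26.5% to 48.0% of its reads. The values of these 2 long rows are therefore also given without their nested rows. Hoxb2 lies wholly inside the antisense gene Hoxb3os, and Hoxb5 and Hoxb6 lie inside 0610040B09Rik. Hoxd8 lies wholly inside 1700109F18Rik, and Hoxa4, Hoxa5 and Hoxa6 inside 2700086A05Rik. Reads of a gene and of the row around it cannot be told apart.

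Rows of paralogs 2 to 7 of Hoxa and 2 to 9 of Hoxb carried most of the Hox reads in each library. Single Hoxc and Hoxd genes reached their range, Hoxc5 with 11.7 CPM in KPC 1 and Hoxd8 with 7.55 CPM in wild type 1, while Hoxa6 stayed at 0.646 CPM or less. No gene of paralogs 10 to 13 was above 2.64 CPM in any library. Per kilobase of interval, the mean level over the 4 libraries was highest for Hoxa5, a regulator of lung and gut patterning, at 8.48 CPM. Next came Hoxb2 at 4.27, Hoxb7 at 3.57, Hoxa4 at 2.71, Hoxb5 at 2.37 and Hoxb8 at 2.26 CPM per kilobase. Hoxb6 stood at 2.19, and the highest Hoxd gene, Hoxd8, at 0.881 CPM per kilobase. These per-length values are understated for genes with long introns, since the interval includes them.

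**Figure D2:**
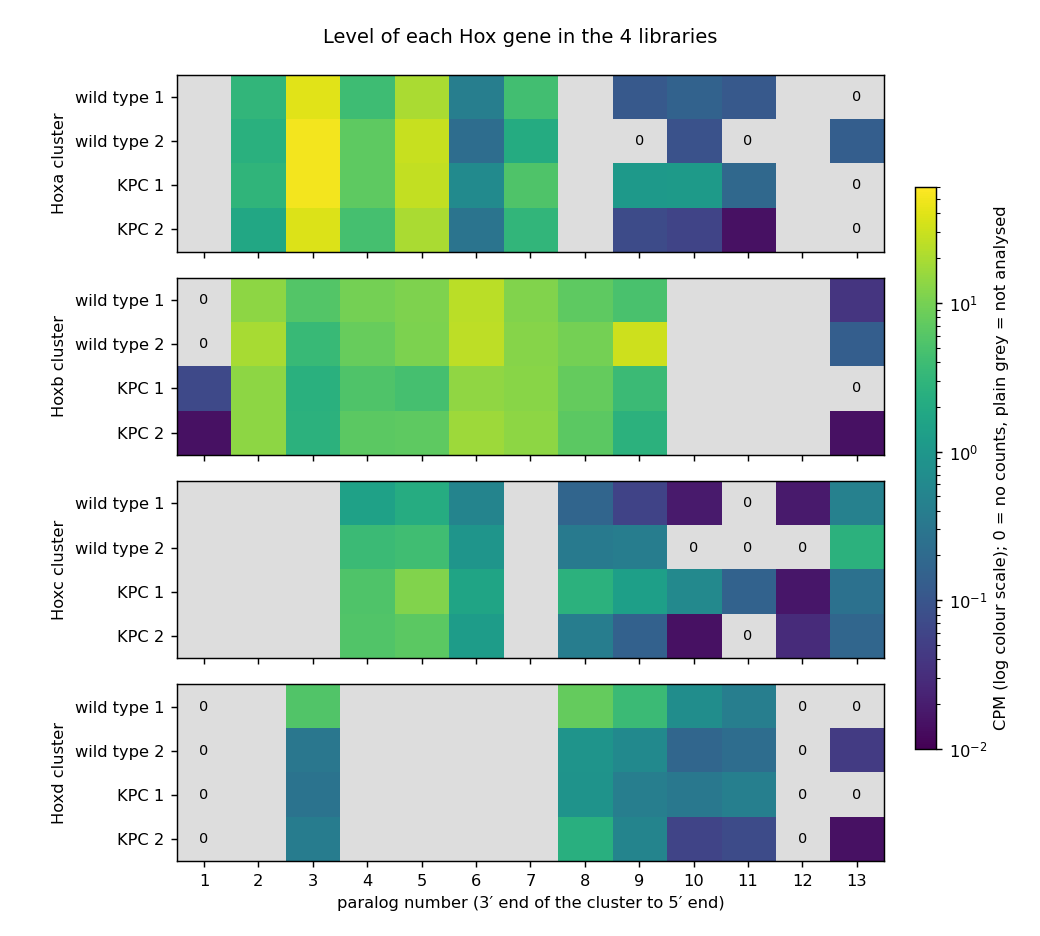
CPM (log colour scale) of the Hox rows by cluster and paralog number in the 4 libraries, with 0 printed where a row had no reads and plain grey where a paralog does not exist or was not analysed. Paralogs 2 to 7 of Hoxa, except Hoxa6, and 2 to 9 of Hoxb are bright in every library, and the Hoxd row is brightest in wild type 1.

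The signs of the fold changes are described by cluster, but 0 genes passed the adjusted threshold and differences between clusters were not tested. Of the 25 tested, 9 had a positive and 16 a negative fold change, with a median log2 fold change of -0.22 for KPC against wild type, where the median of all tested rows was -0.01. Both KPC libraries exceeded both wild type libraries for 5 genes (20% of the 25, against 20.6% of all tested rows) and lay below both for 8 (32%, against 20.5%). With edgeR's quasi-likelihood test 0 members passed the adjusted threshold in either direction (0% of all rows in either direction), and 0 did with DESeq2 (1.44% of all rows higher, 1.28% lower). At an unadjusted p under 0.05 edgeR named 1 member as higher, Hoxc5 (4.0%, against 4.73% of all rows), and 5 as lower, Hoxb5, Hoxb6, Hoxb9, Hoxc13 and Hoxd9 (20%, against 3.94%). Higher genes were thus at the background share, and lower genes were above it in number. Of the 5 lower genes named, Hoxb9 and Hoxc13 had log2 fold changes of -0.61 and -1.08 without wild type 2. That of Hoxd9 was -0.46 without wild type 1. Leaving out 1 library, Hoxb5 ran from -1.23 to -0.64, Hoxb6 from -0.81 to -0.56 and Hoxc5 from 1.08 to 2.05.

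**Figure D3:**
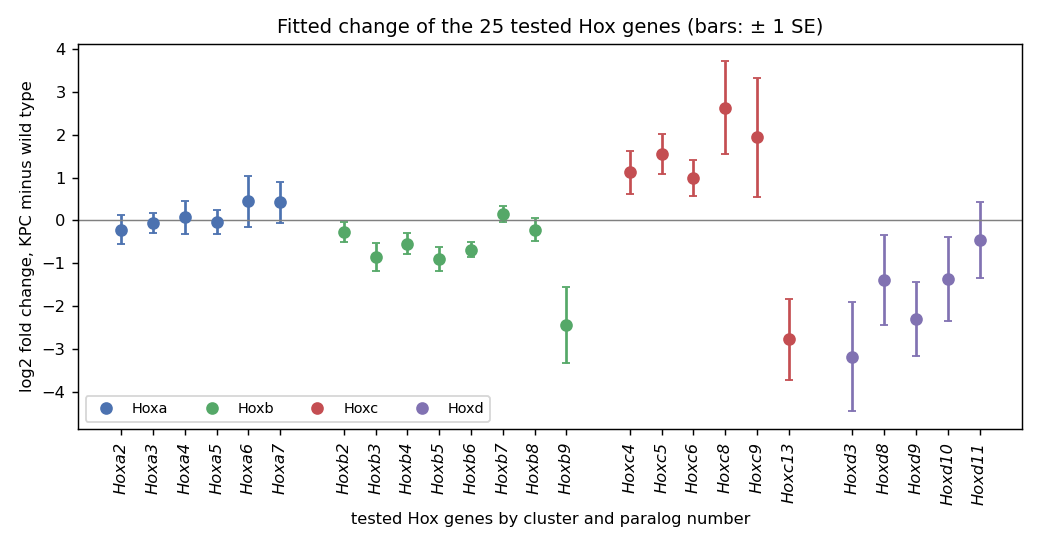
Log2 fold change of KPC against wild type for the 25 tested Hox genes, in cluster and paralog order, with bars of 1 SE. The Hoxa genes lie between -0.22 and 0.45, 7 of 8 Hoxb genes and 5 of 5 Hoxd genes below 0, and 5 of 6 Hoxc genes above 0.

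The Hoxa rows as deposited overlapped between the genotypes. Of the 6 tested genes 3 had a positive and 3 a negative fold change, and the median was 0.02. Hoxa5 stood at 19.7 and 28.9 CPM in wild type against 27.4 and 20.1 CPM in KPC. Hoxa4, which acts in the vertebral column and gut, stood at 4.01 and 7.02 CPM in wild type against 6.85 and 4.67 CPM in KPC. Both genes were higher in wild type 2 and KPC 1 than in the other libraries, so each group held 1 high and 1 low value. The row of Hoxa3, a gene needed for thymus and parathyroid, stood at 40.8 and 51.7 against 50.8 and 37.9 CPM and counts the reads of Hoxa4, Hoxa5 and Hoxa6 too. Without these nested rows it stood at 16.8 and 15.5 CPM in wild type against 15.9 and 12.9 CPM in KPC, with overlap. Without Hoxa2 as well, it stood at 13.7 and 13.0 against 12.9 and 11.04 CPM, and both KPC values were lower.

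Hoxa2, the hindbrain and second arch gene at the 3′ end, stood at 3.06 and 2.50 against 2.94 and 1.87 CPM. Hoxa7 was at 4.30 and 2.10 CPM in wild type against 5.52 and 3.11 CPM in KPC, with a log2 fold change of 0.42 ± 0.49 (SE). Hoxa6 was low, at 0.418 and 0.224 against 0.646 and 0.280 CPM. Hoxa6 and Hoxa7 thus stood higher in replicate 1 than in replicate 2 of both genotypes. The posterior Hoxa genes had few reads: Hoxa9 had 6 and 0 in wild type and 63 and 5 in KPC, and Hoxa10, a gene of the posterior trunk and limb, had 8 and 2 against 68 and 4. Most of the reads of Hoxa9 and Hoxa10 came from KPC 1 alone. Hoxa11 had 6, 0, 11 and 1 reads, and Hoxa13 had 3 reads in wild type 2 and 0 elsewhere.

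With nested reads counted once, the Hoxb cluster was the most abundant in all 4 libraries. It stood lower in KPC for 7 of its 8 tested genes, with a median log2 fold change of -0.62. The groups did not overlap for 7 of the 8. In both KPC libraries 6 were lower (75%, against 20.5% of all tested rows) and 1 was higher (12.5%, against 20.6%). Hoxb6 (chr11:96292476-96301568) stood at 24.0 and 25.2 CPM in wild type against 14.1 and 16.6 CPM in KPC. The 2 wild type values lie close together and both KPC values lie well below them. Its log2 fold change of -0.68 ± 0.18 (SE) had the smallest p of the Hox genes, 0.0153 unadjusted and 0.479 adjusted (edgeR quasi-likelihood test).

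Hoxb5 (chr11:96302595-96306120), the neighbour of Hoxb6 and a gene of gut and lung mesenchyme, stood at 11.1 and 10.7 CPM in wild type against 4.67 and 6.96 CPM in KPC. Its log2 fold change was -0.90 ± 0.28 (SE), with an edgeR adjusted p of 0.530. The non-coding row 0610040B09Rik, which contains both genes, stood at 38.1 and 39.2 against 19.8 and 24.98 CPM. It counts the reads of both genes, so it is not independent of either. The intervals of Hoxb5 and Hoxb6 do not overlap each other. Hoxb4, which is known for its role in blood stem cells, stood at 9.85 and 8.0 CPM in wild type against 5.54 and 6.68 CPM in KPC. The Hoxb3 row, next towards the 3′ end, stood at 5.80 and 3.53 against 2.48 and 2.70 CPM. For both genes all KPC values lay below all wild type values, with log2 fold changes of -0.55 ± 0.25 and -0.86 ± 0.34 (SE). That of Hoxb3 was -0.45 without wild type 1.

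The other Hoxb genes differed less or through 1 library, and the log2 fold change of Hoxb2 was -0.27 ± 0.23 (SE) but -0.01 without wild type 2. Hoxb2, a hindbrain gene, stood at 13.7 and 19.0 CPM in wild type against 13.5 and 13.6 CPM in KPC, and its antisense neighbour Hoxb3os at 21.8 and 23.8 against 18.2 and 17.9 CPM. Hoxb7 was the exception in sign, at 11.5 and 12.6 against 12.9 and 13.5 CPM, giving a log2 fold change of 0.14 ± 0.19 (SE), or 0.07 without wild type 1. Hoxb8, whose transcript carries the miR-196a site shown above, stood at 6.92 and 9.75 CPM in wild type against 7.61 and 6.63 CPM in KPC, with overlap. The difference between Hoxb6 and its 5′ neighbour Hoxb7 was not tested. Hoxb1 had 0 and 0 reads in wild type and 4 and 1 in KPC, and Hoxb13 had 2, 3, 0 and 1.

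Hoxb9 (chr11:96271457-96276595), the most posterior gene of the contiguous Hoxb series, stood at 4.96 and 30.7 CPM in wild type against 3.82 and 2.67 CPM in KPC. Wild type 2 held 6.19 times the level of the next library. The log2 fold change of -2.45 ± 0.89 (SE; edgeR adjusted p 0.560, DESeq2 adjusted p 0.0653) was -0.61 without wild type 2. Gm53, a non-coding row 5′ of Hoxb9, stood at 1.33 and 9.66 against 0.782 and 0.295 CPM, and was likewise highest in wild type 2, 7.25 times the next library (edgeR adjusted p 0.541, DESeq2 adjusted p 0.0264). The Mir196a-1 row between them had 6 and 15 reads in wild type and 0 and 1 in KPC. Poly-A libraries do not measure mature microRNAs, and the Mir10a and Mir10b rows had 0 reads in every library.

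The Hoxc cluster stood the other way, with 5 of 6 tested genes higher in KPC and a median log2 fold change of 1.34. The groups did not overlap for 4 higher genes (66.7%, against 20.6% of all tested rows) and for 1 lower gene (16.7%, against 20.5%). The Hoxc5 row, over a gene whose protein acts in the cervical and thoracic trunk, stood at 2.21 and 4.11 CPM in wild type against 11.7 and 6.62 CPM in KPC. The log2 fold change was 1.55 ± 0.46 (SE), with a p of 0.0213 unadjusted and 0.517 adjusted in edgeR, and a DESeq2 adjusted p of 0.0796. Both KPC values lie above both wild type values. Without its nested rows the Hoxc5 row had 1.46 and 2.41 CPM in wild type against 6.08 and 4.86 CPM in KPC, so the separation remained outside the reads it shares with Hoxc6, Hoxc8 and Hoxc9.

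Hoxc4 (chr15:103018936-103036843), the 3′-most gene of the cluster, overlaps no other member and stood at 1.45 and 3.71 CPM in wild type against 5.39 and 5.67 CPM in KPC. Its KPC values lie close together and its wild type values far apart. The log2 fold change was 1.12 ± 0.50 (SE; edgeR adjusted p 0.611). Without wild type 1 it was 0.58, and without wild type 2 it was 1.93. Hoxc6 stood at 0.513 and 0.939 CPM in wild type against 1.60 and 1.21 CPM in KPC. Hoxc4, Hoxc5 and Hoxc6, 3 neighbours at the 3′ end, were therefore all higher in both KPC libraries. Of the 14 tested members whose interval overlaps no other member, 2, Hoxb7 and Hoxc4, were higher in both KPC libraries. Those lower in both numbered 8 of the 14. Over all tested rows the shares were 20.6% higher and 20.5% lower.

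Further 5′ in Hoxc the difference rested on KPC 1. Hoxc8, a gene of the thoracic trunk, stood at 0.171 and 0.358 CPM in wild type against 2.68 and 0.398 CPM in KPC. Its row was covered over 52.2% of its bases in KPC 1 and over 7.11% to 18.8% in the others. The log2 fold change of 2.63 ± 1.08 (SE) was 0.68 without KPC 1. Hoxc9 stood at 0.0570 and 0.402 against 1.34 and 0.147 CPM, with overlap, and its log2 fold change of 1.94 ± 1.40 (SE) was -0.40 without KPC 1. Hoxc10 had 1 and 0 reads in wild type and 35 and 1 in KPC, Hoxc11 had 9 in KPC 1 and 0 elsewhere, and Hoxc12 had 1, 0, 1 and 2. KPC 1 thus held most reads of Hoxc8 to Hoxc11.

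Hoxc13, a gene of hair and nail at the 5′ end of the cluster (chr15:102921103-102928814), had a fold change of the opposite sign. It stood at 0.456 and 2.64 CPM in wild type against 0.255 and 0.177 CPM in KPC, giving a log2 fold change of -2.78 ± 0.94 (SE; edgeR adjusted p 0.541). Wild type 2 held 5.78 times the next library, and without it the log2 fold change was -1.08. Hoxb9, Gm53 and Hoxc13 were thus all highest in wild type 2.

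The Hoxd genes were high in 1 wild type library. Hoxd3 (chr2:74711929-74748274), a 3′ gene of the neck vertebrae whose row includes Hoxd4, stood at 5.57 and 0.313 CPM in wild type against 0.272 and 0.383 CPM in KPC. That is 14.5 times the next library. Hoxd8 (chr2:74704615-74707933) stood at 7.55 and 0.894 CPM in wild type against 0.867 and 2.39 CPM in KPC, 3.16 times the next library. The row 1700109F18Rik, which contains Hoxd8 and so its reads, stood at 10.04 and 1.92 against 1.61 and 3.09 CPM. Hoxd9 (chr2:74697680-74700208) stood at 3.77 and 0.626 against 0.408 and 0.501 CPM, 6.02 times the next library. In wild type 1 reads covered 76.8% of the Hoxd8 row and 66.6% of the Hoxd9 row, so the level was spread over the genes and not stacked at 1 place. For Hoxd3 the value of wild type 2 lay between those of the 2 KPC libraries.

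Hoxd10 and Hoxd11, limb and posterior trunk genes whose rows overlap, were low. Hoxd10 stood at 0.723 and 0.179 CPM in wild type against 0.323 and 0.0590 CPM in KPC, and Hoxd11 at 0.418 and 0.224 against 0.425 and 0.0737 CPM. Both groups overlapped for each. Hoxd1 and Hoxd12 had 0 reads in every library, which allows up to 0.134 CPM in the shallowest, and Hoxd13 had 1 read in each of 2 libraries. Of the 5 tested Hoxd genes all 5 had a negative fold change, with a median of -1.39. In both KPC libraries 1, Hoxd9, was lower (20%, against 20.5% of all tested rows).

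The Hoxd fold changes therefore turn on wild type 1. Hoxd9 had a log2 fold change of -2.30 ± 0.86 (SE; edgeR p 0.0466 unadjusted and 0.571 adjusted), which was -0.46 without wild type 1. Hoxd3 had -3.19 ± 1.27 (SE), which was 0.07 without wild type 1, and Hoxd8 -1.39 ± 1.05 (SE), which was 0.87. Without wild type 2 edgeR called 429 rows higher and 390 lower, and among them Hoxd3 (-4.07, adjusted p 0.0140) and Hoxd9 (-3.04, adjusted p 0.0208), with wild type 1 left as the lone library of its group and assumed to vary like KPC.

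**Figure D4:**
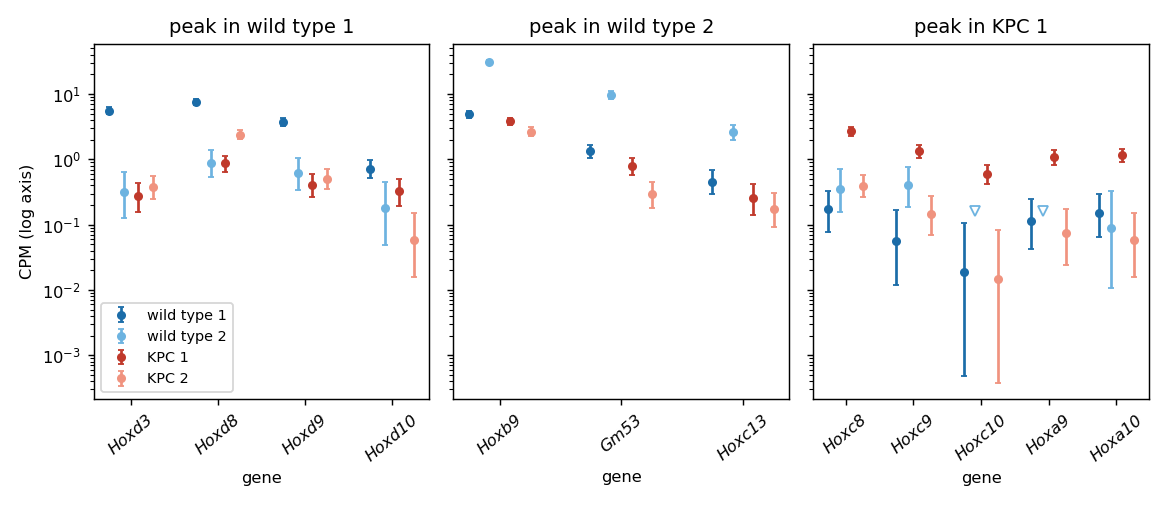
CPM (log axis) with exact 95% Poisson intervals for rows that were highest in 1 library, by the library that held the peak. Open triangles mark the upper end of the interval where no read was found. Hoxd3, Hoxd8 and Hoxd9 peak in wild type 1, Hoxb9, Hoxc13 and the non-member Gm53 in wild type 2, and Hoxc8, Hoxc9, Hoxc10, Hoxa9 and Hoxa10 in KPC 1. Hoxd10, also drawn, was highest in wild type 1 at 0.723 CPM, but less than 3 times its 0.323 CPM in KPC 1.

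Peaks in a single library were counted for the tested Hox genes and for all tested rows. Wild type 1 held at least 3 times the next library for 3 of the 25 tested genes (12%, against 1.29% of all rows), all of them Hoxd. Wild type 2 did so for 2, Hoxb9 and Hoxc13 (background 0.239%), KPC 1 for 2, Hoxc8 and Hoxc9 (background 0.668%), and KPC 2 for 0 (background 0.299%). Among the untested rows, KPC 1 held 9.38 times the next library for Hoxa9 and 7.60 times for Hoxa10, whose next library had 6 and 8 reads. Hoxc10 had 35 reads there and at most 1 elsewhere. Differences between pairs of libraries were taken in log2 of CPM plus 1, which shrinks those of low rows. Between the 2 wild type libraries the median absolute difference was 0.45 over the 25 Hox genes and 0.25 over all tested rows. Between the 2 KPC libraries it was 0.36 and 0.17. Between genotypes it ran from 0.41 (wild type 2 and KPC 2) to 0.65 (wild type 1 and KPC 1) over the Hox genes. Over these genes wild type 2 lay 0.45 from wild type 1, 0.42 from KPC 1 and 0.41 from KPC 2. Over all tested rows these values were 0.248, 0.245 and 0.185, in the same order.

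Some sums of other cell markers were also highest in the libraries that held these peaks. In wild type 1, with the Hoxd peak, the 10 endothelial markers summed to 788 CPM, against 49.5 CPM in wild type 2 and against 23.1 and 35.2 CPM in KPC. The Schwann and neural markers summed to 31.6 against 8.18, 4.45 and 5.25 CPM. All 10 endothelial markers were detected in every library, Pecam1 at 106 CPM in wild type 1 but at 8.05, 3.36 and 5.88 CPM elsewhere. In wild type 2, with the Hoxb9 and Hoxc13 peak, the 8 endocrine markers summed to 954 CPM against 3.92, 1.80 and 2.48 CPM, with 1 and 0 of the 8 at 0 in wild type and 3 and 1 in KPC. Ins1 stood at 215 CPM in wild type 2 and had 0 reads in KPC 1. In KPC 1, with the Hoxc8 to Hoxc11 and Hoxa9 to Hoxa10 peak, the 10 epithelial markers summed to 1185 CPM against 31.9, 432 and 445 CPM, and the 6 mesothelial markers to 212 against 8.77, 52.2 and 151 CPM. Msln, which marks mesothelium, stood at 76.6 CPM in KPC 1 against 0.837, 8.72 and 17.2 CPM. The mesothelial sum was also higher in KPC 2 than in either wild type library. The pericyte and smooth muscle sum, given below, was highest in KPC 1 too. All 10 epithelial and all 6 mesothelial markers were detected in every library, and both lists hold Krt19. The part of these cells in the Hox levels was not tested.

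Some marker sums also moved with genotype, beside the Hoxb and Hoxc differences. All 10 tested macrophage markers were higher in both KPC libraries, with a median log2 fold change of 2.99. So were 4 of the 6 mesothelial markers, with 0 lower in both. Of the 10 endothelial markers 8 were lower in both. Of all tested rows 20.6% were higher and 20.5% lower in both. The 8 pericyte and smooth muscle markers summed to 513 and 1272 against 2352 and 1445 CPM, with 3 of them higher and 1 lower in both KPC libraries. Their part in the Hoxb and Hoxc values was not tested either.

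Summed by cluster, Hoxb stood at 87.8 and 119 CPM in wild type against 64.7 and 69.3 CPM in KPC, a mean of 104 ± 22.4 against 67.0 ± 3.25 CPM (SD, n = 2 each). Hoxc stood at 4.89 and 12.2 against 23.7 and 14.3 CPM, 8.52 ± 5.14 against 19.0 ± 6.70 CPM (SD, n = 2 each). Neither sum overlapped between groups, and the log2 ratios were -0.63 and 1.16. Without wild type 2 they were -0.39 and 1.96, and without wild type 1 the Hoxc ratio was 0.64. Hoxa summed to 72.7 and 92.7 CPM in wild type against 96.5 and 68.1 CPM in KPC, a log2 ratio of -0.01. Hoxd summed to 18.03 and 2.28 against 2.29 and 3.42 CPM, with a log2 ratio of -1.83 that was 0.33 without wild type 1. An exact permutation test of 2 against 2 libraries cannot give a two-sided p below 0.333, so these sums carry no test.

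As shares of all Hox reads, with reads of nested rows counted once, those of Hoxa and Hoxc were larger in each KPC library than in either wild type one. Hoxa held 30.6% and 29.9% in wild type against 42.0% and 33.6% in KPC, although its level did not separate the groups. Hoxc held 2.61% (Wilson 95% interval 2.29% to 2.98%) and 5.54% (4.89% to 6.27%) of Hox reads in the wild type libraries. In KPC it held 12.3% (11.7% to 13.1%) and 9.75% (9.15% to 10.4%). Hoxb held 55.4% and 63.3% in wild type and 44.1% and 54.0% in KPC, and Hoxd 11.4% and 1.21% against 1.56% and 2.67%. The intervals cover counting error only. The libraries of a group differed from each other by more than such intervals, except for Hoxa in wild type. There the intervals were 29.7% to 31.6% and 28.6% to 31.3%.

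**Figure D5:**
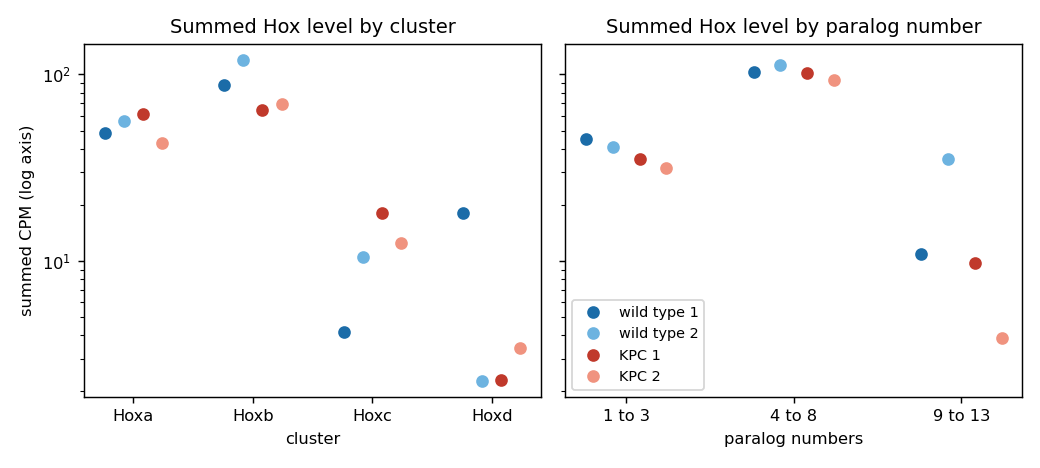
Summed CPM (log axis) by cluster (left) and by paralog range (right) in the 4 libraries, with nested rows counted once. The Hoxb values of KPC lie below and the Hoxc values above those of wild type, and paralogs 9 to 13 are highest in wild type 2.

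Ordered by paralog number instead of cluster, the summed level had a mean below that of wild type in all 3 ranges. With the long rows taken without their nested rows, paralogs 1 to 3 summed to 44.8 and 40.8 CPM in wild type against 35.1 and 31.4 CPM in KPC. Paralogs 4 to 8 summed to 103 and 113 against 102 and 93.0 CPM. The log2 ratios were -0.36 and -0.15 (-0.21 and -0.11 with all rows as deposited). Paralogs 9 to 13 summed to 10.8 and 35.2 CPM in wild type against 9.75 and 3.85 CPM in KPC, a log2 ratio of -1.76 that was -0.67 without wild type 2. Paralogs 4 to 8 held all 4 Hoxc genes that were higher in both KPC libraries and 3 Hoxb genes that were lower in both.

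Single paralog groups showed how the clusters offset each other. Paralog 6, which Hoxb6 dominates, summed to 24.9 and 26.3 CPM in wild type against 16.3 and 18.1 CPM in KPC. Paralog 4 summed to 15.3 and 18.7 against 17.8 and 17.0 CPM, with Hoxb4 lower and Hoxc4 higher in KPC. Paralog 9 summed to 8.90 and 31.7 against 6.64 and 3.39 CPM, and paralog 13 to 0.494 and 2.95 against 0.255 and 0.206 CPM, with wild type 2 highest for both through Hoxb9 and Hoxc13.

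Of the TALE cofactors 9 were tested. Of these, 3 had a positive and 6 a negative fold change, the median log2 fold change was -0.03, and 0 passed edgeR's adjusted threshold. Meis3, a partner of Hox proteins, stood at 9.64 and 8.09 CPM in wild type against 6.59 and 5.51 CPM in KPC. Pbx3, another partner, stood at 10.4 and 10.95 against 8.29 and 9.08 CPM. Both were lower in both KPC libraries, with log2 fold changes of -0.55 ± 0.24 and -0.30 ± 0.20 (SE) and edgeR adjusted p of 0.602 and 0.712.

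Polycomb and Trithorax genes are known to set the silent and active parts of the clusters. The Trithorax list here also holds H3K27 demethylase genes. Both lists gave 0 genes at an unadjusted edgeR p under 0.05, of 19 and 11 tested. Their median log2 fold changes were -0.04 and -0.12. Ring1, a Polycomb ubiquitin ligase subunit, stood at 7.59 and 8.99 CPM in wild type against 9.58 and 10.6 CPM in KPC, and Phc3 at 16.3 and 8.31 against 9.01 and 7.60 CPM. The Jarid2 row stood at 2676 and 333 against 264 and 360 CPM, but its reads covered 8036 of 192169 bases in wild type 1. On the Trithorax list 3 genes had a positive and 8 a negative fold change, and of the Polycomb genes 7 and 12. The 3 positive ones, the subunits Wdr5, Dpy30 and Ash2l, were each higher in both KPC libraries (3 of 11, against 20.6% of all tested rows), Wdr5 at 21.5 and 19.0 against 26.4 and 23.8 CPM. Dpy30 stood at 11.1 and 10.7 against 13.5 and 13.2 CPM, Ash2l at 29.9 and 24.3 against 32.4 and 31.0 CPM, and the methyltransferase Kmt2a at 22.8 and 13.6 against 15.0 and 10.7 CPM.

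Among the retinoic acid and Cdx inducers, 10 of 14 were tested, 4 positive and 6 negative, with 0 higher and 1 lower at an unadjusted p under 0.05. That gene, Aldh1a1, which makes retinoic acid, stood at 69.6 CPM in wild type 1 against 3.17, 0.714 and 1.67 CPM (DESeq2 adjusted p 0.111), so it peaked in the library with the Hoxd peak. Aldh1a2, the main embryonic enzyme of the pathway, stood at 9.30 and 20.7 CPM in wild type against 29.6 and 29.3 CPM in KPC. The receptor Rara stood at 15.0 and 15.6 against 11.03 and 12.1 CPM, and Rarb, the most abundant of the list, at 188 and 186 against 157 and 183 CPM.

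Of 22 genes listed as non-coding genes of the clusters, 13 had a row and 5 were tested, of which GENCODE M21 gives 5730596B20Rik as protein-coding. The test gave 2 lower at an unadjusted p under 0.05, 0610040B09Rik (DESeq2 adjusted p 0.0727) and Gm53. The row 2700086A05Rik, which contains Hoxa4, Hoxa5 and Hoxa6 and so their reads, stood at 27.6 and 38.3 against 39.0 and 28.2 CPM. Of 11 tested genes flanking the clusters, 3 had a positive and 8 a negative fold change, and 1, Skap1, was lower at an unadjusted p under 0.05. Skap1, a T cell adaptor gene at the 3′ side of Hoxb, stood at 13.6 and 11.6 CPM in wild type against 8.29 and 6.99 CPM in KPC (DESeq2 adjusted p 0.206). Ttll6, on the other side of Hoxb, stood at 1.60 and 2.91 against 1.38 and 1.78 CPM, and Skap2, beside Hoxa, at 28.0 and 28.4 against 36.1 and 29.7 CPM. Atp5g3, the most abundant flanking gene, stood at 143 and 183 against 165 and 160 CPM.

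Other transcription factors of regional mesenchyme held the smallest p of the companion lists. Of 20 tested, 10 had a positive and 10 a negative fold change, with 2 higher and 3 lower at an unadjusted p under 0.05. Nkx2-5, a factor of the spleen and pylorus mesenchyme, stood at 2.02 and 1.65 CPM in wild type against 0.289 and 0.177 CPM in KPC, giving a log2 fold change of -2.98 ± 0.40 (SE). Its edgeR p was 8.68e-04 unadjusted and 0.211 adjusted, and its DESeq2 adjusted p was 0.000157. Tbx15 stood at 4.2 and 2.28 against 0.646 and 1.05 CPM (DESeq2 adjusted p 0.0274), En1 at 0.666 and 2.37 against 4.91 and 6.18 CPM (DESeq2 adjusted p 0.126), and Barx1, a stomach mesenchyme factor, at 13.5 and 21.5 against 24.6 and 24.3 CPM. For each of these 4 genes the groups did not overlap.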

How the data were processed

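Poly-A RNA of 4 libraries was sequenced in single reads of 50 bases, per the labels' protocols. The build is mm10/GRCm38 and the tools are TopHat2 2.0.3, SAMtools 0.1.18, FastQC 0.10.1 and bedtools without a version, per the submitters' processing notes, which give no roles. The authors deposited, per gene row, a read count, the number of covered bases, the interval length and the covered fraction. Counts are whole numbers over the whole interval with introns, with no strand apparent, and overlapping rows share reads, so totals are not numbers of reads. Starts were read as 1-based, since 27195 rows match GENCODE M21 that way and 125 the other way.

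Rows were filtered (filterByExpr, minimum count 10) and tested with edgeR 4.0.16 in R 4.3.3 (TMM factors 0.988 to 1.02, two-sided quasi-likelihood test, Benjamini-Hochberg over 23046 rows, 0.05). The SE is the size of the unshrunk log2 fold change over the root of F. Scripts were tested on simulated data. DESeq2 1.42.0, limma voom (limma 3.58.1), other factors and filters, the omission of each library and a replicate block were alternatives. Figures used matplotlib 3.10.9. No library repeated another: replicates differed with a chi-square per degree of freedom of 115 (wild type) and 62.6 (KPC).

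The Hox family was picked as a subject, and the gene and marker lists were chosen, with earlier results of these data known. The naming rule took every tested Hox gene and, in each companion list, the 3 genes of smallest unadjusted p and the most abundant one. A gene that this rule took is not reported here. Genes of the untested rows, marker genes and Gm53's neighbour Mir196a-1 were named after their values were seen. Sequences come from RefSeq (GRCm38.p6) and GENCODE M21 transcripts. No batch is given in the labels.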

Additional observations from a re-analysis of the deposited data

How the results depend on the processing

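Other scalings kept the sign of every cluster sum and paralog range except Hoxa, whose log2 ratio was -0.0065 and became 0.0082 with library totals only. It was 0.68 over the members that overlap no other member. That restriction gave -0.54 for paralogs 1 to 3 and -0.34 for paralogs 4 to 8. It kept 14 of the 25 tested genes. Of the 5 genes higher in both KPC libraries it left 2, and all 8 genes lower in both remained. Over all tested rows 20.6% were higher and 20.5% lower in both. DESeq2 called 333 rows higher and 294 lower. At an unadjusted p under 0.05 the Hox genes higher in KPC numbered 3 with DESeq2, 3 with no count filter and 2 with voom. The lower ones numbered 7 with DESeq2, 7 with no count filter and 3 with voom. They numbered 3 with the filter of at least 1 CPM in 2 libraries. The share of all rows at this threshold is not given for these fits or for the replicate block below. These counts therefore show no gain or loss of Hox genes, and the cause of their differences was not tested. Replicate numbers were shared by label only: with 2 pairs and a correlation of deviations of 0.143, they do not pair the libraries. The replicate block gave 2 higher and 2 lower Hox genes at an unadjusted p under 0.05. Leaving out 1 library, where a library left alone was taken to vary as the other group does, the rows called ran from 0 to 429 higher and from 0 to 390 lower. Hox genes called lower ran from 0 to 2 and higher stayed at 0. Unadjusted, they ran from 0 to 3 higher and from 0 to 6 lower, with both 0 without KPC 1. On the 4-library scaling, Hox genes with no overlap among the remaining 3 libraries ran from 5 to 9 higher and 10 to 13 lower. These are 20% to 36% and 40% to 52% of the 25 genes. The lower ones ran from 10 to 12 with scaling factors fitted to the remaining 3 libraries. With 3 libraries groups separate more readily: 31.2% to 38.6% of all tested rows were then higher and 31.6% to 39.6% lower. Log2 ratios ran from -0.27 to 0.22 (Hoxa), -0.83 to -0.39 (Hoxb), 0.64 to 1.96 (Hoxc), -2.66 to 0.33 (Hoxd), -0.36 to -0.07 (paralogs 1 to 3), -0.20 to -0.03 (4 to 8) and -2.58 to -0.67 (9 to 13). Of single genes, Hoxa4 reversed with upper quartile factors (-0.0013) and Hoxa5 with voom (0.0011). Leaving out 1 library turned the sign of Hoxa2 (-0.57 to 0.0704), Hoxa3 (-0.28 to 0.13), Hoxa4 (-0.29 to 0.52), Hoxa5 (-0.29 to 0.27), Hoxa6 (-0.25 to 1.03), Hoxa7 (-0.043 to 1.04), Hoxb8 (-0.45 to 0.041), Hoxc9 (-0.40 to 3.64), Hoxd3 (-4.07 to 0.0709), Hoxd8 (-2.30 to 0.87), Hoxd10 (-2.97 to 0.0603) and Hoxd11 (-2.14 to 0.34). In all, 247 single-gene values kept direction and side of the threshold, 18 reversed and 2 passed it. Depth limits the untested rows most in wild type 2, where 1 read stands for 0.0447 CPM.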
